A study of Caenorhabditis elegans with 12 samples.

Results

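Steady-state messenger RNA of the nematode Caenorhabditis elegans was compared between the genotypes labelled glh1 and wt in whole-lysate RNA. The comparison used 6 of the 12 libraries of the series, 3 of each genotype, chosen by their labels as total RNA rather than polysomal RNA. GLH-1 is a DEAD-box RNA helicase of the Vasa family, a family found in the germ cells of many animals. It sits in P granules, the RNA-protein bodies that ring the nuclei of germ cells, where messenger RNAs pass through after export and where small RNA pathways act on them. Worms that lack it are known for reduced fertility, with temperature-dependent defects in oocytes and sperm.

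Each genotype was grown in 3 separate liquid cultures with freeze-dried OP50 bacteria as food. Hatched, synchronized larvae of both genotypes were kept at 20 °C for about 40 h, until most were young adults. Frozen worms were ground in a buffer with cycloheximide, which both genotypes received, and 1 part of each lysate gave the total RNA libraries. The labels name the genotypes only as glh1 and wt. The allele, the outcrossing of the strain and any reporter or tag are not given in the sources used here, so that a strain background shared by all 3 glh1 cultures cannot be told apart from the genotype. All RNA came from whole worms, in which fewer cells of a type and less RNA per cell cannot be told apart.

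The deposited table held estimated counts for 46904 gene IDs, with totals of 34520267 to 49672537 per library, and 15918 genes had enough counts to be tested. The tissue label reads whole embryo. Of 8 early embryonic markers none was at 0 in all libraries and 3 passed the filter on low counts. Levels are given in CPM (library-scaled counts that are corrected for composition). Summed over these 3 markers, the level was 0.782 to 1.15 CPM in glh1 and 0.956 to 2.66 in wt. The markers that failed the filter are not in this sum. The 6 oocyte markers summed to 2066 to 2118 CPM in glh1 and 1936 to 3040 in wt, and the 8 sperm markers to 247 to 255 and 162 to 188. Genes annotated as ribosomal RNA took 13.5 to 27.9% of the counts in glh1 and 28.8 to 40.4% in wt. On principal component 1 (55.6% of the variance) the glh1 libraries lay between -30.8 and -27.6 and wt library 1 at -17.7, whereas wt libraries 2 and 3 lay at 59.9 and 47.0. On component 2 (26.6%) wt library 1 lay alone at -53.2. Results are therefore given with the libraries that decide them.

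The gene that gave the strain its label was measured first. The level of glh-1 (WBGene00001598, WBcel235 I:6854478-6857536, plus strand) was 539.5, 585 and 549 CPM in glh1 libraries 1 to 3 and 314, 385 and 292 CPM in wt. All 3 glh1 libraries lay above all 3 of wt. The log2 fold change was 0.76 ± 0.14 (SE) with an adjusted p of 0.0191 in edgeR's quasi-likelihood test, adjusted by Benjamini and Hochberg over all tested genes. The difference did not pass without glh1 library 1 (adjusted p = 0.106), 2 (0.131) or 3 (0.102), or without wt library 3 (0.0831). Its close paralog glh-2 measured 143.5, 151 and 129 CPM in glh1 and 84.7, 98.0 and 81.9 in wt, a log2 fold change of 0.68 ± 0.12 (adjusted p = 0.0179) with no overlap. How reads shared by the glh genes were divided is not known. The more distant paralogs overlapped between genotypes, with log2 fold changes of 0.10 for glh-3 (adjusted p = 0.598) and -0.05 for glh-4 (adjusted p = 0.800). The labels do not say whether the allele removes, shortens or marks the transcript, and the protein was not measured, so the glh-1 level checks the labels in neither direction.

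Of the 15918 genes, 711 were higher and 626 lower in glh1 at an adjusted p under 0.05, 8.40% of those tested (4.47% higher and 3.93% lower). These are referred to below as genes that rose and fell. The median absolute log2 fold change was 0.92 among genes that rose and 0.74 among those that fell, and 283 and 183 of them changed at least 2-fold. For 35.0% of all tested genes the 3 libraries of one genotype lay above the 3 of the other. The median log2 fold change of all genes was -0.00. With upper-quartile scaling it was 0.08, and the calls split into 628 rises and 363 falls. The count rested on single libraries. Without glh1 library 1, 2 or 3, 79, 54 and 83 genes passed, and without wt library 3 it was 146, against 1178 without wt library 2. Without wt library 1 it was 7198, with all 1337 genes among them. In the 6 fits that each left out 1 library, 33 rises and 21 falls passed every time. A gene named below as robust is one of these 54, and every other gene named as risen or fallen missed the threshold in at least 1 of those fits.

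**Figure D1:**
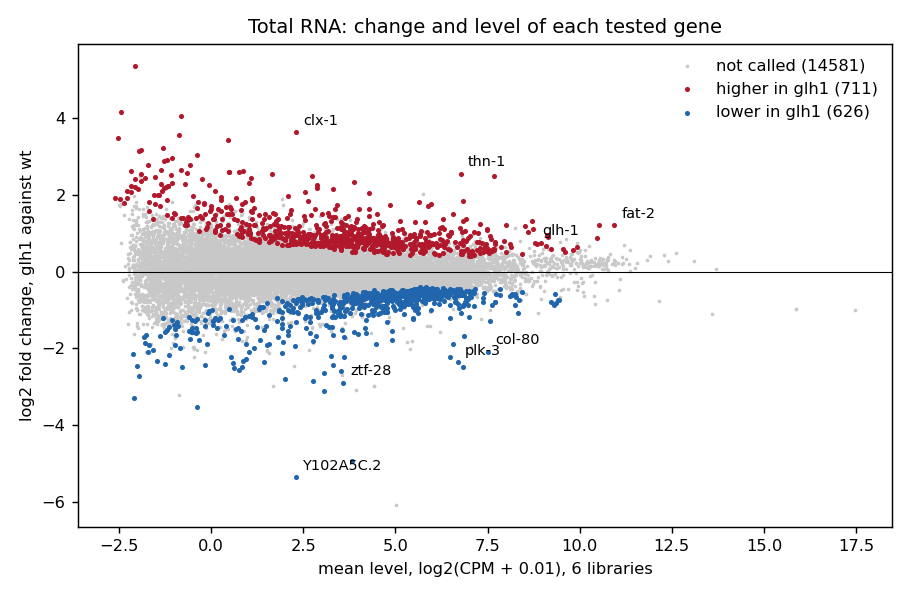
Each point is 1 of the 15918 tested genes, with its mean level over the 6 total RNA libraries on the x axis, log2(CPM + 0.01), and its log2 fold change of glh1 against wt on the y axis. The 711 genes that rose and 626 that fell are coloured, with named examples such as thn-1 (2.55) and Y102A5C.2 (-5.36) labelled.

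Among robust rises, thn-1 (WBGene00009213, IV:12380084-12380900), which encodes a thaumatin-family protein known for induction by bacterial infection, had the smallest adjusted p of the genes with a class name. It measured 189, 189.8 and 179 CPM in glh1 and 30.9, 33.7 and 30.6 CPM in wt, a log2 fold change of 2.55 ± 0.11 (adjusted p = 6.39e-05). The 2 groups were far apart, and within each the libraries differed little. The collagen-like gene clx-1 (IV:7734648-7736324) rose from 0.931, 0.772 and 0.502 CPM to 8.98, 8.98 and 9.36 CPM, with a log2 fold change of 3.65 ± 0.25 (adjusted p = 5.69e-04). It was the largest of the rises picked by fold change, which needed a class name and at least 1 CPM. Its neighbour C50F7.5 (IV:7726719-7727639), which has no class name and was named after its values were seen, measured 368, 316 and 354 CPM in glh1 and 47.4, 72.6 and 63.4 CPM in wt (log2 fold change 2.50). Other robust rises were fipr-24 (3.44), a small secreted peptide related to fungus-induced genes, tag-293 (3.03), the collagen gene col-50 (2.34) and scl-5 (1.83), a secreted protein of the SCP family. The remaining rises picked by fold change, ins-31 (2.78), nspc-4 (2.59), fipr-22 (2.58), col-108 (2.42), fbxa-163 (2.16), pqn-84 (1.94) and nlp-39 (1.88), were not robust. Except for fbxa-163, which averaged 16.0 CPM in glh1, these were genes of low level. The robust fipr-24 and tag-293 were low too. On average fipr-24 measured 2.49 CPM in glh1 and 0.231 in wt, and tag-293 1.35 and 0.170, so both folds rest on few wt counts. Called genes with no class name rose by up to 4.17 on the log2 scale, in a gene that averaged 0.335 CPM in glh1.

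Among robust falls, the zinc-finger gene ztf-28 (V:2090669-2091740) measured 2.40, 2.79 and 3.34 CPM in glh1 and 18.6, 24.3 and 20.7 CPM in wt, a log2 fold change of -2.90 ± 0.19 (adjusted p = 5.65e-04). The kinase gene plk-3 (IV:7470860-7473209), of the polo-like family that acts in cell division, measured 33.0, 32.3 and 36.1 CPM in glh1 and 114, 190.0 and 214 CPM in wt (log2 fold change -2.35 ± 0.22, adjusted p = 0.00155). The collagen gene col-80 (II:10707201-10708287) measured 61.4, 75.9 and 72.5 CPM in glh1 and 252, 348 and 291 CPM in wt (-2.09 ± 0.16, adjusted p = 6.75e-04). In each of these 3 genes the lowest wt library was above 3 times the highest glh1 library. The BATH-domain gene bath-7 (-2.38), the F-box gene fbxa-206 (-3.11) and the lectin gene clec-223 (-1.84) were robust too. The falls of spp-17 (-2.52), col-93 (-2.49), col-88 (-2.36), bath-1 (-2.34), bcf-1 (-2.24), acox-1.2 (-2.11) and clec-227 (-2.10) were not. In bcf-1 wt library 1 decided this: its 33.7 CPM lay beside the 29.6, 32.5 and 32.2 CPM of glh1, while wt libraries 2 and 3 measured 211 and 201 CPM.

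**Figure D2:**
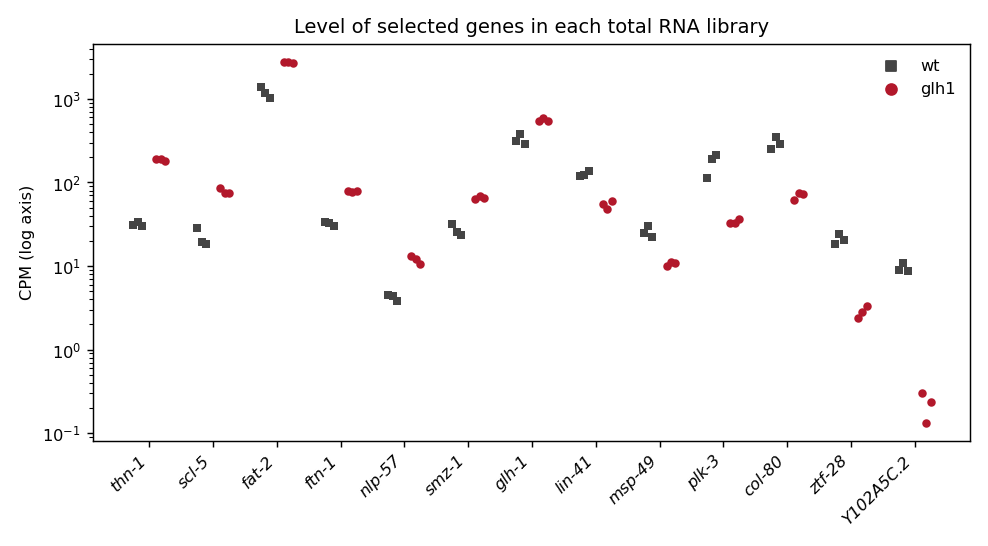
Points show the level of selected genes, in CPM on a log axis, in each of the 3 glh1 and 3 wt total RNA libraries, with the gene on the x axis. The libraries of the genotypes stay apart in thn-1 (179 to 189.8 against 30.6 to 33.7 CPM) and ztf-28 (2.40 to 3.34 against 18.6 to 24.3 CPM).

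The 8 most abundant rises whose libraries did not overlap were fat-2, lys-7, crt-1, fat-6, acdh-1, hacd-1, pdi-3 and scl-2 (0.56), single genes picked by their level. The fatty acid desaturase fat-2 (IV:13323873-13326395), which makes polyunsaturated fatty acids, measured 2768, 2754 and 2723 CPM in glh1 and 1385, 1170.0 and 1013 CPM in wt, a log2 fold change of 1.21 ± 0.15 (adjusted p = 0.00600). The stearoyl-CoA desaturase fat-6 rose by 0.91 ± 0.20 on the log2 scale. The dehydrogenase gene acdh-1, of the alternative route of propionate breakdown, rose by 0.64, and hacd-1 by 0.59. Calreticulin, crt-1, measured 1841, 1906 and 1804 CPM in glh1 and 1076, 1084 and 847 CPM in wt (0.88 ± 0.14, adjusted p = 0.0140), and the disulfide isomerase pdi-3 rose by 0.59. The intestinal lysozyme lys-7 measured 2143, 2084 and 1951 CPM in glh1 and 612, 1046 and 1000 CPM in wt (1.22 ± 0.21, adjusted p = 0.0157). The lack of overlap in these genes was a condition of the choice. None of them was robust: fat-2 and crt-1 passed in 3 of the 6 fits with 1 library left out, each time the 3 that lacked a wt library, and lys-7 in 2.

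The 8 most abundant falls with no overlap held 4 collagens, an actin and germline regulators. The collagens col-122, col-19, col-119 and col-181 fell by 0.87, 0.82, 0.80 and 0.75 on the log2 scale. Of these, col-122 measured 443, 468 and 429 CPM in glh1 and 853, 898 and 698 CPM in wt. The helicase gene cgh-1, a DDX6-type factor that protects stored maternal messages, measured 520.0, 466 and 553 CPM in glh1 and 709, 918 and 943 CPM in wt (-0.74 ± 0.15, adjusted p = 0.0262). The translational repressor gld-1 (-0.54), the actin gene act-3 (-0.59) and epic-2 (-0.73) completed the set. None of the 8 was robust.

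Of 38 regulators of germline stem cells and translation, 15 fell and 1 rose, with a median log2 fold change of -0.44. The oogenesis factor daz-1 measured 65.1, 59.8 and 86.0 CPM in glh1 and 118, 170.3 and 160.5 CPM in wt (-1.09 ± 0.19, adjusted p = 0.0158). The ataxin-2 ortholog atx-2 fell by 0.85 on the log2 scale, the sex-determination transcription factor tra-1 by 0.83, and gls-1, a partner of germline RNA-binding proteins, by 0.84. The gld and cpb classes were named because each held at least 3 calls, so their counts describe that choice. All of the gld class but 1 fell, 3 of 4, including the cytoplasmic poly(A) polymerases gld-2 (-0.83) and gld-4 (-1.11). In the CPEB class of polyadenylation factors the members moved in opposite directions: cpb-1 (-0.65) and cpb-3 (-0.67) fell, and cpb-2 rose, from 14.2, 8.24 and 9.23 CPM to 20.6, 20.9 and 18.7 CPM (0.92 ± 0.21, adjusted p = 0.0364). The count of falls went to 0 or 1 without any 1 glh1 library or wt library 3, to 9 without wt library 2 and to 31 without wt library 1. With a trend on exon length removed from each library it was 9.

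Of 31 oocyte and maternal regulators, 11 fell and 0 rose, and all 31 had a log2 fold change below 0 (median -0.45). The translational regulator lin-41 (I:9334800-9342496), a TRIM-NHL protein that holds oocytes in their fate, was robust. It measured 56.0, 47.7 and 59.7 CPM in glh1 and 119.5, 121 and 136 CPM in wt, a log2 fold change of -1.20 ± 0.13 (adjusted p = 0.00255). The mex class was named because it held at least 3 calls, so its count describes that choice. Of 4 mex genes, which encode RNA-binding proteins of the early embryo, 3 fell: mex-5 (-0.88), mex-6 (-0.87) and mex-1 (-0.81). So did the polarity kinases par-1 (-0.64) and pkc-3 (-0.58) and the Notch ligand apx-1 (-0.61). Of the 6 oocyte markers 1 fell, lin-41. In the list's median centred level, wt library 1 (-0.10) lay near the glh1 libraries (-0.27 to -0.18) and wt libraries 2 and 3 above them (0.39 and 0.33). The count of falls was 1 without any 1 glh1 library or wt library 3, 6 without wt library 2, 29 without wt library 1 and 5 with the exon-length trend removed.

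Of 21 P granule and associated RNA-binding proteins, 0 rose and 3 fell (median -0.31): cgh-1, the piRNA factor pid-2 (-1.01 ± 0.16, adjusted p = 0.0124) and the RNA-binding protein gene tiar-1 (-0.47). The P granule scaffold gene pgl-1, given here outside the naming rule as the best known member, measured 335, 329 and 316 CPM in glh1 and 276, 356 and 303 CPM in wt, which overlapped (0.07 ± 0.13, adjusted p = 0.758). Among 19 Argonautes, the proteins that bind small RNAs, alg-4 rose from 31.2, 17.9 and 20.0 CPM to 51.02, 44.1 and 52.9 CPM (1.10 ± 0.21, adjusted p = 0.0200). Its class members alg-5 (-0.63) and alg-2 (-0.80) fell. ALG-4 is known as an Argonaute of the sperm-producing germline, ALG-2 as one that acts with microRNAs. Of 39 other small RNA factors, 2 fell, rde-11 (-0.96) and smut-1 (-0.48). Of 40 meiosis genes edgeR's test called 0 (median -0.24), with 8 at an unadjusted p under 0.05 and 1 called by DESeq2. Of 19 eggshell genes 2 fell, perm-5 (-0.92) and egg-3 (-0.59). The called share in either direction was 14.3% of the P granule list and 15.8% of the Argonautes. It was 5.13% of the other small RNA factors and 10.5% of the eggshell genes, against 8.40% of all tested genes. Without wt library 1, 11 P granule genes, 9 Argonautes, 19 small RNA factors, 23 meiosis genes and 10 eggshell genes passed as lower, and 1 P granule gene, 3 Argonautes and 3 small RNA factors as higher. The meiosis, P granule and eggshell lists had lower centred levels in wt library 1 (-0.20, -0.15 and -0.26) than the middle glh1 library.

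**Figure D3:**
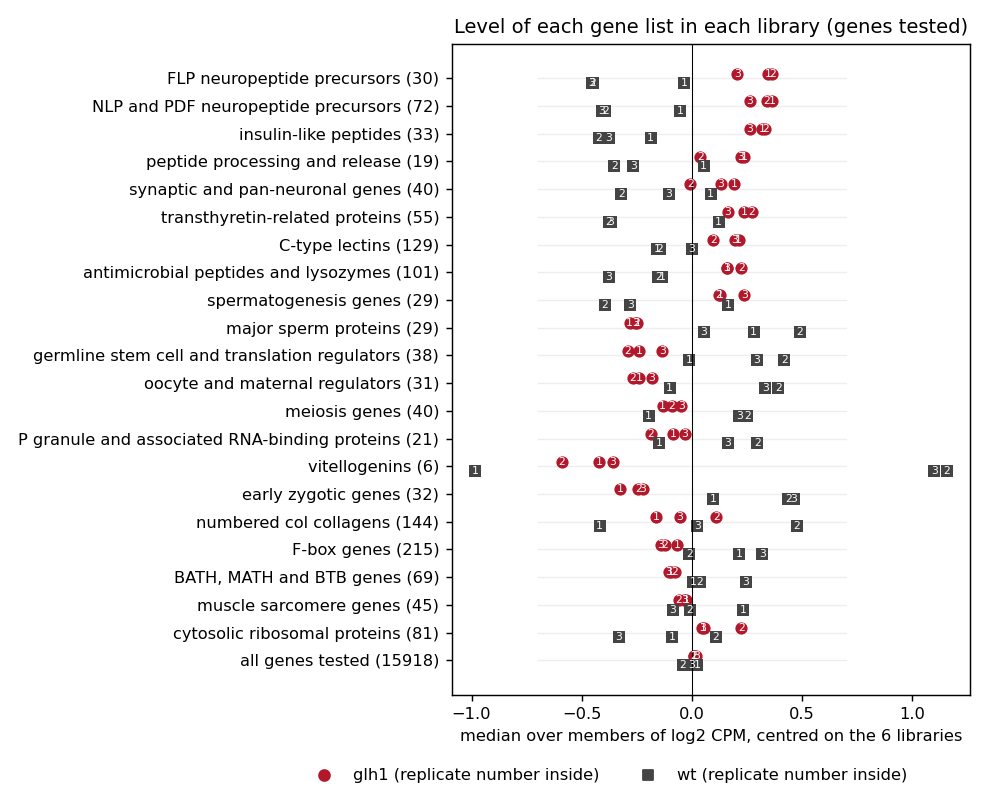
For each gene list (number of tested genes in brackets, y axis), numbered points give the level in each of the 6 total RNA libraries, as the median over members of log2 CPM centred on the 6 libraries (x axis). In the neuropeptide lists all glh1 points lie to the right of wt, and in the vitellogenin list wt library 1 (-0.98) lies left of all glh1 libraries while wt libraries 2 and 3 lie at 1.16 and 1.10.

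Yolk and embryonic genes showed how much wt library 1 decided. The yolk protein gene vit-3 measured 1.15, 0.509 and 1.11 CPM in glh1 and 0.704, 100.4 and 89.7 CPM in wt, and vit-4 measured 1.08, 0.724 and 0.829 CPM in glh1 and 0.377, 40.5 and 40.8 CPM in wt. In both, wt library 1 lay inside or below the glh1 range. The test passed for vit-4 (-4.94 ± 1.23, adjusted p = 0.0444) although the groups overlapped, and not for vit-3 (-6.08 ± 1.53, adjusted p = 0.0555). The most abundant member, vit-2, measured 13810, 12700 and 14200 CPM in glh1 and 11700, 14060 and 12830 in wt (0.08 ± 0.16, adjusted p = 0.776). vit-3, vit-4 and vit-5 are near copies, and how reads shared by them were divided is not known. Of 32 early zygotic genes, transcribed in the embryo, 8 fell and 0 rose (median -0.66), among them sdz-28 (-1.64 ± 0.28, adjusted p = 0.0158), the zinc-finger gene die-1 (-0.83) and the GATA factor elt-1 (-0.74). The count of falls was 0 without any 1 glh1 library or wt library 3, 6 without wt library 2 and 18 without wt library 1. It was 3 with upper-quartile scaling and 4 with a strict filter (5 CPM in 3 libraries), which tests fewer genes. Early zygotic genes that passed as higher numbered 2 without wt library 1 and 1 with upper-quartile scaling.

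Sperm genes moved in both directions. Major sperm proteins, the cytoskeletal and signalling proteins of nematode sperm, fell in 17 of 29 tested genes and rose in 0 (median -0.60). The gene msp-49 measured 9.91, 11.3 and 10.9 CPM in glh1 and 24.7, 30.5 and 22.2 CPM in wt (-1.27 ± 0.16, adjusted p = 0.00577). msp-152 (-0.89), msp-50 (-0.91) and msp-63 (-1.25) fell as well. The msp genes are near copies of each other, so single members are uncertain. In contrast, 3 of the 28 spe genes, named for sterility through defective sperm, rose and 1 fell. Their called share was 14.3%, against 8.40% of all tested genes. The rises included spe-6 (0.82), a kinase that holds back sperm activation, and spe-19 (0.98), and the transcription factor spe-44 fell (-0.58). In the sperm-specific small and phosphatase families, 5 rose and 4 fell of 39. The robust smz-1, a sperm PDZ protein, measured 63.8, 68.7 and 65.1 CPM in glh1 and 31.5, 25.8 and 23.6 CPM in wt (1.29 ± 0.13, adjusted p = 0.00253), and smz-2 rose by 1.28. The sperm phosphatases gsp-3 (0.98) and gsp-4 (0.58) rose, as did msrp-7 (1.11), while nspd-9 (-1.66), ssp-19 (-1.88), ssp-31 (-0.83) and msrp-3 (-1.19) fell. Of 8 tested ttbk genes, tau-tubulin kinase relatives, 4 rose and 1 fell. The ttbk class was named because it held at least 3 calls, so its counts describe that choice.

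Of the 8 sperm markers, 3 rose and 1 fell, with a median log2 fold change of 0.29. Their sum was higher in every glh1 library than in wt, at 247 to 255 against 162 to 188 CPM. A sum in CPM gives most weight to the most abundant markers. It describes these 8 genes and not sperm genes as a whole, since 17 of 29 msp genes fell and 0 rose. Without wt library 1, 20 msp genes were lower and 1 higher, and 14 spermatogenesis genes were higher and 2 lower. Without any 1 glh1 library no msp gene passed, and without wt library 3 it was 5. In the centred level of the msp list, glh1 libraries lay at -0.28 to -0.25 and wt at 0.28, 0.49 and 0.05, apart from each other. In the spermatogenesis list wt library 1 (0.17) lay within the glh1 range of 0.12 to 0.24.

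**Figure D4:**
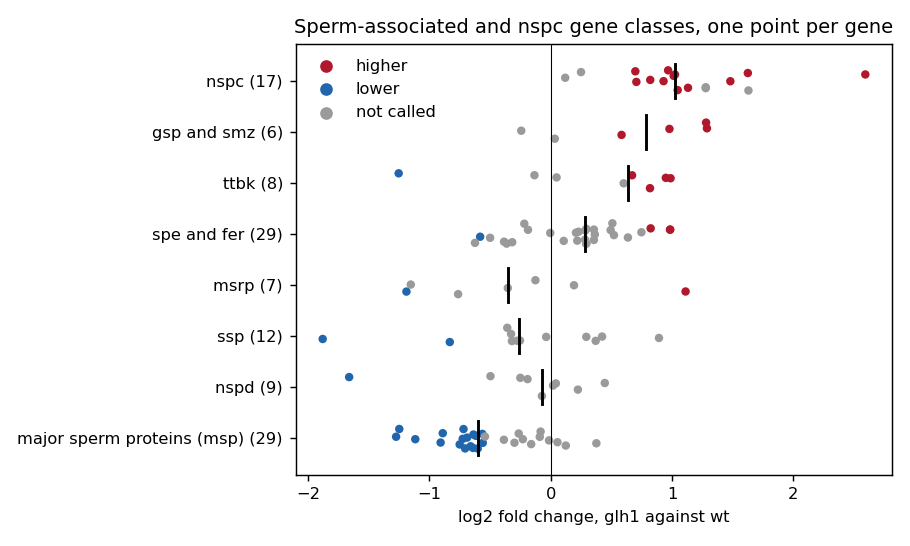
Each point is a tested gene of a sperm-associated class or of the nspc class (y axis, number of genes in brackets), with its log2 fold change of glh1 against wt on the x axis and called genes marked. The msp genes lie mostly below 0 (median -0.60, 17 of 29 called lower), and all 17 nspc genes lie above 0, 12 of them called.

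The gene class with the highest share of calls, of 142 classes with at least 10 tested members, was nspc (nematode-specific peptide family, group c), with 12 of 17 genes higher (70.6%) and log2 fold changes of 0.12 to 2.59. The function of these small peptides is not known. The robust member nspc-16 (X:14523575-14524021) measured 100.6, 107 and 98.3 CPM in glh1 and 44.2, 48.5 and 46.6 CPM in wt (1.13 ± 0.10, adjusted p = 0.00155). The members nspc-20 (1.03), nspc-10 (1.01), nspc-9 (0.97) and nspc-7 (1.62) passed in 5 of the 6 fits with 1 library left out. All 17 genes lie on the X chromosome and are near copies, so they may share reads. Of 2205 tested genes on the X chromosome 110 rose (4.99%) and 23 fell (1.04%), against 601 (4.39%) and 603 (4.41%) of 13685 autosomal genes, so the shares lay further apart for falls than for rises. Without the nspc class 98 X genes rose (4.48%) and 23 fell (1.05%). The difference between X and autosomes was not tested. Of 12 dosage compensation genes, which equalize X expression between the sexes, edgeR's test called 0, with 5 at an unadjusted p under 0.05 and 1 called by DESeq2.

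**Figure D5:**
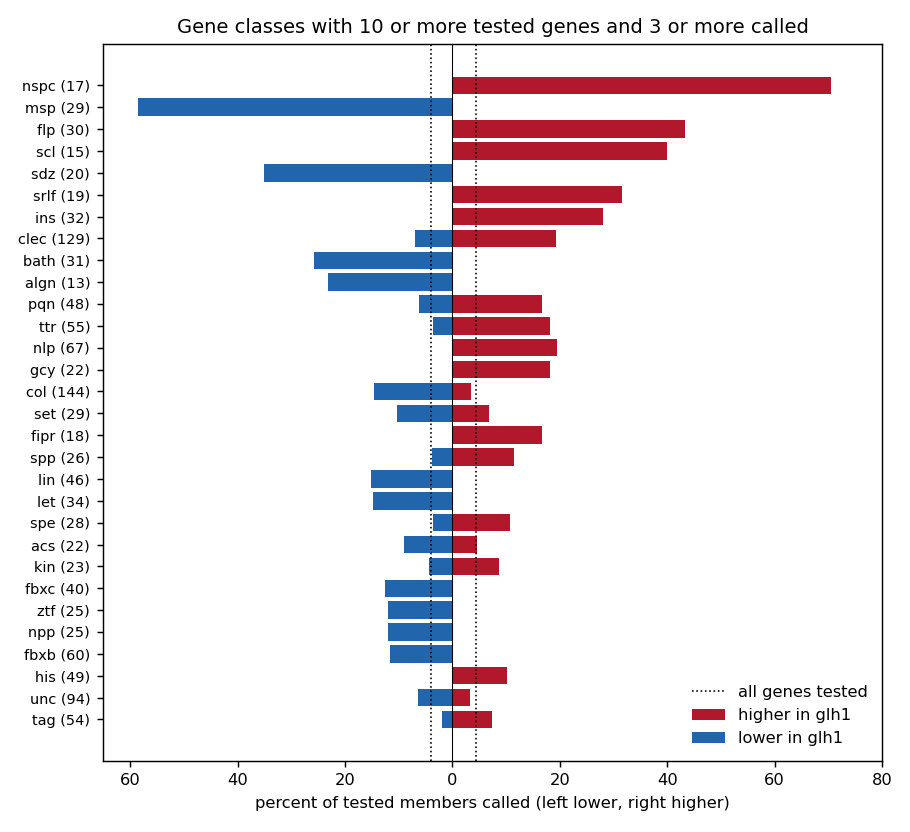
Bars give the percentage of tested members called lower (left) and higher (right) in glh1 for the gene classes with the largest share of calls, with the number tested in brackets on the y axis and dotted lines at the shares of all tested genes (3.93% lower, 4.47% higher). Classes with calls in 1 direction include nspc, flp, scl and srlf on the right and msp, sdz, bath and algn on the left.

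In the main fit on all 6 libraries, neuropeptide precursors rose where they were called. Of 30 FLP precursors, which encode FMRFamide-like peptides, 13 rose and 0 fell, and all 30 had a log2 fold change above 0 (median 0.60). The gene flp-18 measured 116, 109.9 and 104 CPM in glh1 and 66.9, 45.4 and 41.0 CPM in wt (1.10 ± 0.18, adjusted p = 0.0144), and flp-12 (0.88) and flp-5 (0.87) followed. Of 72 NLP and PDF precursors 16 rose and 0 fell (median 0.63). The robust nlp-57 measured 13.02, 12.0 and 10.6 CPM in glh1 and 4.45, 4.35 and 3.83 CPM in wt (1.50 ± 0.17, adjusted p = 0.00330), and nlp-47 (1.00) and nlp-18 (0.88) rose as well. Of 33 insulin-like peptides, ligands of the DAF-2 receptor, 9 rose and 0 fell (median 0.64), with ins-3 (1.22) and ins-24 (0.85) among them.

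Of 19 genes of peptide processing and release 5 rose (median 0.32), including sbt-1 (0.81), which chaperones the convertase EGL-3, the amidating enzymes pghm-1 (0.77) and pgal-1 (0.59), and the carboxypeptidase egl-21 (0.59). Of 40 synaptic and pan-neuronal genes 4 rose (median 0.22): the syntaxin unc-64 (0.57), the SNAP-25 homolog ric-4 (0.56), the vesicular acetylcholine transporter unc-17 (0.81) and the complexin cpx-1 (0.61). The called share of the synaptic list in either direction was 10%, near the 8.40% of all tested genes. Of 22 guanylyl cyclases of the gcy class, many of which act in sensory neurons, 4 rose, and of 59 chemoreceptors 1. The 6 neuronal markers summed to 359 to 394 CPM in glh1 and 280 to 361 in wt, which overlapped slightly. The processing and synaptic lists had 0 calls without any 1 glh1 library or wt library 3. Without wt library 1, 11 processing genes passed as higher and 1 as lower, and 18 and 5 synaptic genes. In their centred levels wt library 1 (0.05 and 0.09) lay above glh1 library 2 (0.04 and -0.01). Without any 1 glh1 library or wt library 3, 0 FLP precursors passed, against 9 without wt library 2 and 30 without wt library 1. For the NLP and PDF list these counts of higher genes were 1 to 4, 13 and 55, and for the insulin-like list 0, 7 and 22. Without wt library 1, 2 NLP and PDF and 2 insulin-like genes also passed as lower. Short transcripts leaned higher over the whole table: across 15904 genes, which are not independent, the Spearman correlation of log2 fold change and exon length was -0.179, and the median exon length was 939 bases among genes that rose and 1757 among those that fell. With that trend removed, 6 FLP, 8 NLP and PDF, 3 insulin-like and 3 processing genes passed as higher, with medians of 0.41, 0.46, 0.48 and 0.36.

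Secreted defence-related families held many rises. Of 101 antimicrobial peptides and lysozymes 20 rose and 1 fell (median 0.21). Besides thn-1, thn-2 rose from 238 to 594 CPM on average (1.32), fip-2 by 0.92, and the antibacterial factor genes abf-2 (1.51) and abf-5 (0.80) rose as well. In the scl class 6 of 15 rose. The robust scl-5 measured 85.8, 74.3 and 74.9 CPM in glh1 and 28.3, 19.6 and 18.4 CPM in wt (1.83 ± 0.18, adjusted p = 0.00181). Of 129 C-type lectins, carbohydrate-binding proteins of which many respond to pathogens, 25 rose and 9 fell (median 0.34). The infection-responsive clec-60 measured 198, 211 and 197.5 CPM in glh1 and 84.7, 118 and 100.5 CPM in wt (1.00 ± 0.14, adjusted p = 0.00822). The lectins that rose further, such as clec-130 (3.22) and clec-138 (2.64), averaged under 1 CPM. The robust fall of clec-223 went from 6.04, 5.25 and 6.82 CPM in wt to 1.64, 1.80 and 1.61 CPM in glh1. Counts of higher genes moved with the same libraries: without any 1 glh1 library or wt library 3, 3 or 4 antimicrobial genes and 0 to 2 lectins passed, and without wt library 1 it was 51 and 46, beside 22 antimicrobial genes and 31 lectins that passed as lower. With the exon-length trend removed 12 antimicrobial genes were higher (median 0.04), and with the strict filter 14 lectins were higher and 1 lower.

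Of 55 transthyretin-related genes 10 rose and 2 fell (median 0.40), with 6 higher once the exon-length trend was removed, and ttr-2, a robust rise, measured 178, 183 and 163 CPM in glh1 and 66.5, 77.9 and 59.4 CPM in wt (1.36 ± 0.13, adjusted p = 0.00181). Of 8 phat genes, which encode peptides of the pharyngeal glands, 3 rose, and phat-7 was robust at 373, 343 and 351 CPM in glh1 and 168, 146 and 146.5 CPM in wt (1.21 ± 0.12). Of 8 far genes, which encode fatty acid and retinol binding proteins, 3 rose, with far-6 robust (1.00) and far-1 at 0.75, and far-3 fell (-1.13). Of 8 lbp genes, which encode intracellular lipid-binding proteins, 2 rose and 1 fell (median -0.20). The phat, far and lbp classes were named because each held at least 3 calls, so their counts describe that choice. Over all tested genes 8.40% were called. Of 19 srlf genes 6 rose, srlf-7 from 267 to 576 CPM on average (1.11). The ferritin gene ftn-1 (V:7546468-7547579), which stores iron in the intestine, was robust. It measured 79.1, 77.9 and 79.9 CPM in glh1 and 34.01, 32.7 and 30.5 CPM in wt (1.29 ± 0.10, adjusted p = 8.14e-04). The ferroportin gene fpn-1.1 rose by 0.60, and the second ferritin gene ftn-2 did not pass (0.40, adjusted p = 0.0971).

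Of 144 numbered col genes 21 fell and 5 rose (median -0.18), but falls did not outnumber rises without any 1 glh1 library or without wt library 2. The gene col-160 measured 199, 214 and 202 CPM in glh1 and 379.5, 513 and 407 CPM in wt (-1.08 ± 0.14, adjusted p = 0.00679), and col-143 (-0.89) and col-94 (-1.18) fell with it. Against this direction col-50 (I:3651236-3652702) rose from 4.78, 5.68 and 3.96 CPM to 22.7, 26.9 and 23.3 CPM (2.34 ± 0.18, adjusted p = 6.75e-04), and col-10 rose by 0.93. Of 21 collagens named by their body-shape phenotypes 1 fell, and their centred level was lowest in wt library 1 (-0.98) and highest in wt library 2 (0.52), with glh1 between -0.12 and 0.27. Of 37 molting and heterochronic regulators 5 fell, among them mlt-7 and the nuclear receptor nhr-23. Of 45 sarcomere genes 5 fell: act-3, the perlecan unc-52 (-0.50), dim-1 (-0.46), the twitchin unc-22 (-0.71) and the pharyngeal myosin myo-1 (-0.54). The called share was 13.5% of the molting list and 11.1% of the sarcomere list, against 8.40% of all tested genes. The epidermal markers summed to 492 to 546 CPM in glh1 and 671 to 1158 in wt, but 1 of the 6 was called lower and their median log2 fold change was 0.08. The muscle markers summed to 1133 to 1237 and 1242 to 2026 CPM, with 1 of 5 called lower and a median of -0.20. With upper-quartile scaling 12 col, 0 sarcomere and 1 molting gene passed as lower. With the exon-length trend removed 3 sarcomere genes passed as higher and 1 as lower, and 3 molting genes as lower. Of the col genes 1 passed as higher and 1 as lower without any 1 glh1 library, and 2 and 9 did without wt library 3. Without wt library 2 it was 12 in each direction, with a median of 0.08, and without wt library 1 it was 17 higher and 64 lower. Sarcomere genes had 0 calls without any 1 glh1 library or wt library 3, and 10 higher and 9 lower without wt library 1.

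The classes sqv, algn and mom were named because each held at least 3 calls, so their counts describe that choice. Of 8 sqv genes, which build the glycosaminoglycan chains of proteoglycans, 4 fell: sqv-7 (-0.91), sqv-6 (-0.89), sqv-5 (-0.83) and sqv-3 (-0.71). Of 13 algn genes, which assemble the sugar donor of asparagine-linked glycosylation, algn-6 (-1.03), algn-12 (-0.64) and algn-9 (-0.60) fell. Of 4 mom genes of the Wnt pathway that polarizes early blastomeres, the Wnt ligand mom-2 (-0.63), the frizzled receptor mom-5 (-0.61) and mom-1 (-0.97), needed to secrete Wnt, fell. The sqv-6 level was 23.1, 22.2 and 18.9 CPM in glh1 and 35.5, 39.3 and 43.8 CPM in wt (-0.89 ± 0.14, adjusted p = 0.0116). Of 25 nuclear pore genes 3 fell (12%, against 8.40% of all tested genes called). The npp-7 level was 74.5, 64.3 and 81.6 CPM in glh1 and 126, 131.5 and 142 CPM in wt (-0.86 ± 0.12, adjusted p = 0.00924). All of these lost their calls without any 1 glh1 library.

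F-box and BATH genes, large nematode families of substrate adaptors for protein degradation that vary between strains, had more falls than rises. Of 215 F-box genes 17 fell and 3 rose (median -0.32), and of 69 BATH, MATH and BTB genes 9 fell and 2 rose (median -0.23). The called share in either direction was 9.30% of the F-box genes, near the 8.40% of all tested genes. It was 15.9% of the BATH, MATH and BTB genes. The robust fbxc-45 measured 4.71, 6.06 and 5.02 CPM in glh1 and 13.7, 14.3 and 14.9 CPM in wt (-1.44 ± 0.16, adjusted p = 0.00351). With upper-quartile scaling 9 F-box genes were lower, with the strict filter 3 of 34 were lower and 2 higher (median 0.07), without any 1 glh1 library or wt library 3 2 were lower, and without wt library 1 68 were lower and 23 higher. Members are near copies and may share reads.

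Several of the deepest falls lay side by side on the chromosome. Having such neighbours was common among called genes. Of all genes that fell, 58.2% lay within 50 kb of another that fell, and the share among rises was 60.1%. Whether this exceeds random placement was not tested. On V:16917201-16921323 all 3 tested genes fell: fbxa-206, which measured 1.84, 2.04 and 1.303 CPM in glh1 and 10.8, 16.4 and 17.5 CPM in wt, Y102A5C.2 and the pseudogene WBGene00013612. All 3 were robust. Y102A5C.2 was the largest fall of all called genes, from 9.01, 10.99 and 8.62 CPM in wt to 0.302, 0.134 and 0.237 CPM in glh1 (-5.36 ± 0.29, adjusted p = 1.87e-04). On II:1916713-1930083, 7 of 8 tested genes fell with a median log2 fold change of -1.62, among them bath-7 and bath-2. There bath-7 measured 0.475, 0.482 and 0.498 CPM in glh1 and 2.57, 2.22 and 2.81 CPM in wt, and bath-2 6.33, 6.51 and 5.88 CPM against 13.3, 14.9 and 14.5 CPM. On II:2014902-2052747, 7 of 12 tested genes fell with a median of -1.06. These regions were picked for their falls, so their medians describe the choice. Among rises, 14 runs held 5 or more genes with gaps of at most 50 kb. In 1 of them, IV:13250655-13342333, 6 of 18 tested genes rose and 1 fell, with ttr-51, ttr-45, fat-2 and far-6 among the rises.

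Of 57 histone genes 6 rose and 1 fell (median 0.00), with 2 higher once the exon-length trend was removed (median -0.20). The H3.3 gene his-70 measured 7.93, 8.60 and 8.34 CPM in glh1 and 2.92, 3.43 and 2.84 CPM in wt (1.44 ± 0.17, adjusted p = 0.00443), and his-71, which also encodes H3.3, rose by 0.85. The other 4 rises were his-37 (0.72), his-41 (0.63), his-35 (0.59) and the linker histone gene hil-1 (0.57). Another linker histone gene hil-2 fell from 53.7, 88.1 and 58.6 CPM to 29.4, 31.7 and 33.3 CPM (-1.09 ± 0.19, adjusted p = 0.0161). Messages of most histone genes lack the poly(A) tails by which libraries of this kind are made. The cytochrome c gene cyc-2.2 rose from 6.14, 7.50 and 6.67 CPM to 15.7, 18.6 and 19.5 CPM (1.41 ± 0.16, adjusted p = 0.00390), the only called gene of 51 nuclear-encoded respiratory chain genes. The adenine nucleotide translocase genes ant-1.3 (1.74) and ant-1.4 (1.63), named after their values were seen, were robust. Of 30 chromatin regulators 2 fell, the histone demethylase rbr-2 (-0.79) and the SWI/SNF subunit swsn-1 (-0.56). The called share was 12.3% of the histone genes and 6.67% of the chromatin regulators, against 8.40% of all tested genes.

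General housekeeping and detoxification lists held few calls. Of 81 cytosolic ribosomal protein genes 2 rose, rpl-24.2 (0.76) and rpl-42 (0.90), and the list's median was 0.22. Few were called, but 80 of the 81 had a log2 fold change above 0, as had 31 of 33 proteasome genes. With the exon-length trend removed the ribosomal median was 0.03. Of 42 translation factors and 31 aminoacyl tRNA synthetases 1 each rose. Of 182 nuclear hormone receptors 1 rose and 1 fell, and of 102 conjugation enzymes 2 rose and 1 fell. The only heat shock or co-chaperone gene called of 52 was dnj-26 (-1.17). In edgeR's test 0 of 60 cytochrome P450, 33 pals, 70 mitochondrial ribosomal protein, 33 proteasome, 29 astacin and 12 mitochondrially encoded genes passed, with 8, 6, 11, 6, 4 and 1 of them at an unadjusted p under 0.05. DESeq2 called 1 proteasome and 1 astacin gene and none of the other lists. Without wt library 1, 20 cytochrome P450 genes passed as higher and 6 as lower, 12 and 3 pals genes, 53 and 11 nuclear hormone receptors, and 10 and 11 translation factors. The mitochondrially encoded genes had a median of -0.44 and a centred level of 0.89 in wt library 1, against -0.30 to -0.06 in glh1 and -0.29 and -0.19 in the other wt libraries.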

How the data were processed

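Polyadenylated RNA of 6 total RNA libraries was compared, 3 cultures per genotype. The deposited table holds estimated counts per gene, made by the authors before deposit, and their tool is not known: per the submitters' processing notes DESeq2 1.24.0, R 3.6.1, RSEM 1.3.0, STAR 2.6.1b and Trimmomatic 0.36 were used with genome WBcel235, whereas the deposited table is named for kallisto. The deposited rlog values, regularized log2 counts, were used only as an alternative. The sources used here do not say if strand was used in counting. Symbols and positions came from Ensembl release 115 (WBcel235).

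Estimated counts were rounded, filtered with filterByExpr, scaled with TMM and tested with edgeR 4.0.16 (R 4.3.3), by quasi-likelihood with robust dispersions on the 6 libraries alone. Benjamini and Hochberg adjustment ran over 15918 genes, and an adjusted p under 0.05 was a call. The script was tested on simulated data. Total estimated counts ran from 34520267 to 49672537, and log2 fold changes had a median SE of 0.206. Chi-square per degree of freedom between replicates was 23.8 to 245, so no library was a copy of another. CPM values are TMM-scaled. A list's level in a library is the median over its tested members of log2 CPM (prior count 2), centred on the 6 libraries. A gene class is the letters before the hyphen of a symbol. Of the tested genes 88 had counts identical to another gene's, 10 of them called, and some symbols (clec-15, sdz-25) stand for 2 such IDs.

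The members and the 49 lists were chosen with earlier results of these data known. After values were seen, errors of membership were corrected: 2 genes left the P granule list, col-50 left the male list, and 2 classes that are not receptors left the chemoreceptors. Named genes are the glh family, up to 12 called genes per direction by fold change (absolute log2 of at least 1, at least 1 CPM, no overlap, a class name), up to 8 per direction by mean CPM, up to 4 per list by p, called members of classes with at least 3 calls, and up to 3 per direction with no class name. Roles given are background. The alternatives tried were upper-quartile scaling, DESeq2 size factors, a strict filter (5 CPM in 3 libraries) or none, all 12 libraries, a replicate block, DESeq2 1.42.0, limma 3.58.1 on rlog values, removal of rRNA genes or of a trend on exon length (lowess, span 0.3), and each library left out. One gene is not reported here. Figures used matplotlib 3.10.9.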

Additional observations from a re-analysis of the deposited data

How the results depend on the processing

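Against 1337 calls, 711 higher and 626 lower, the fit with all 12 libraries gave 156 (85 and 71), all of them among the 1337, and DESeq2 gave 2396 (1154 and 1242), with 1296 shared. Upper-quartile scaling left 363 lower genes. Leaving out 1 library gave 54 to 7198 calls, 33 to 3702 higher and 21 to 3496 lower, lowest without glh1 library 2 and highest without wt library 1, and the cause was not tested. The log2 fold change of glh-1 was 0.68 with all 12 libraries (adjusted p = 0.200), and 0.68 to 0.88 with 1 library left out. The remaining alternatives kept the total within 1.5 times, at 991 to 1894. With the replicate number as a block 1894 genes passed (1006 and 888), of which 1266 were shared, and with the block and the exon-length trend removed 1603 did. Deviations of same-numbered libraries correlated at 0.135, 0.113 and 0.0918, each library's best match being its own number, which is a hint from the data and not from the design, so the libraries were not treated as paired. Among the 174 other genes named, no called gene changed direction under any alternative run. In total, 2919 gene and setting combinations gave 2102 on the same side of the threshold, 808 no longer past it and 9 newly past it. Genes under 1 CPM rest on few counts, and 3 cultures per genotype limit the precision.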
